A study of Arabidopsis thaliana with 6 samples.

Results

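The genes described are 3 ferritin genes and 7 iron deficiency regulator genes of Arabidopsis thaliana, 10 of the 38189 genes in the count tables. They were chosen by locus, with earlier results of these data known: FER1, FER3 and FER4, BTS, PYE, BHLH38, BHLH39, BHLH101, IMA1 and OPT3. Expression was measured by RNA sequencing in the hb34 mutant (n = 3 libraries) and in its wild type, WT (n = 3), both in the Columbia background, with mock given as the treatment of every library. All plants were 10 days old and grew on diluted Murashige and Skoog medium at 22 °C in long days (light 16 h, dark 8 h). The mutated gene, HB34, codes for a homeobox transcription factor, which the series title places between jasmonic acid synthesis, immunity and growth. For the kind of hb34 allele, the plants per library and the medium's iron, details were not given in the sources used here. No label says that replicates came from separate cultures, so p-values measure the spread between these libraries, which may be technical.

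Plants need iron for photosynthesis and respiration, but free iron is toxic. Ferritins are protein shells that store iron in plastids, and their genes are transcribed when iron is plentiful. When iron is short, basic helix-loop-helix (bHLH) transcription factors raise the genes for uptake and distribution, IMA peptides promote this response, and the ubiquitin ligase BRUTUS (BTS) restrains it by acting on upstream bHLH factors.

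Library totals ran from 18240122 to 19670468 counts in hb34 and from 17562497 to 19537297 counts in WT. HB34 itself had 19, 43 and 23 counts in hb34 replicates 1 to 3, against 1571, 1547 and 1821 in WT replicates 1 to 3. Replicate 2 of hb34 stood apart on principal component 1 of the log2 CPM values (CPM, counts scaled to library size), at -82.1 against -8.5 and -17.6 for the other hb34 libraries and 25.8 to 41.2 for WT. The labels say leaves and the extraction protocol says seedlings. Summed levels of 13 root markers were 5.86 to 9.71 CPM in hb34 and 4.40 to 6.34 CPM in WT, with 5 of the 13 at 0 counts in every library. Most of each sum was SHR (4.42 to 7.34 CPM in hb34 and 4.29 to 5.98 CPM in WT), and the root gene BGLU23 had 5, 33 and 23 counts in hb34, against 1, 0 and 0 in WT. The 5 leaf markers summed to 39323 to 43533 CPM in hb34 and 46358 to 48855 CPM in WT. The 3 seed markers had 0 counts in every library.

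Regulatory sequence is shown for genes on which the results turn, to set a ferritin gene that did not pass the test (FER3) beside BTS, which rose. Each is the 250 bases before the annotated gene start, in RefSeq's TAIR10.1 build, 5′ to 3′ on the gene's own strand. Capitals mark CACGTG, the G-box to which many bHLH factors bind. FER3 lies at chr3:20816036-20816285 on the minus strand and BTS at chr3:6273716-6273965 on the plus strand.
FER3: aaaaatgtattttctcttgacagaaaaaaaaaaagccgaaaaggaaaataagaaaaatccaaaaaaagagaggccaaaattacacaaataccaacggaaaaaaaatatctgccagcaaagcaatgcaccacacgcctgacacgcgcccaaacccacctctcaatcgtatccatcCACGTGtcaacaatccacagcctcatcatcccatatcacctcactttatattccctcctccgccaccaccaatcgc
BTS: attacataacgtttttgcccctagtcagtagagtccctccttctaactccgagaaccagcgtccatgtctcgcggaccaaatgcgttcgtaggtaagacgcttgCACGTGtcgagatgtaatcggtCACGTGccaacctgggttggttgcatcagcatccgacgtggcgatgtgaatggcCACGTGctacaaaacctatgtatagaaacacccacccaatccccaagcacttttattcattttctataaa
FER3 held 1 G-box, whose first base lay 76 bases before the gene start, and BTS held 3, at 146, 124 and 70 bases. A G-box was present in 4 of the 9 member windows searched (FER3, BTS, BHLH38 and OPT3), against 6.49% of all 27443 protein-coding genes. CACGTG reads the same on both strands.

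FER1 is shown by a single site, the match to the iron-dependent regulatory sequence through which ferritin transcription is held low when iron is short (both strands searched, letters as in the capitals, with any base allowed at the seventh and the tenth of them). The site, with 8 bases on each side and the match in capitals, lies at chr5:229763-229792 on the minus strand.
FER1: ggatgtagCACGAGGCCGCCACacgcccct
The match began 190 bases before the start codon. The annotated start of FER1 is 457 bases before that codon, so the site falls inside the annotated leader. In the 500 bases before the start codon, this motif occurred in FER1 and in no other of the 27443 genes (0.00364%). Its letters are FER1's own outside the free positions, so only near-exact copies of that site were counted. In that window G-boxes occurred in 5 of the 9 members searched, FER1 with 1 at 143 bases among them, against 9.34% of all genes. GNATATNC, the site of the phosphate starvation factor PHR1, also palindromic, occurred there in FER1, BHLH38 and BHLH39, against 9.19% of all genes. A match is a description of these letters only.

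Of the ferritin genes, FER1 and FER4 fell in hb34, and FER3 did not pass the test. Together their transcript level per length was 148.1 ± 15.4 TPM (transcript abundance scaled for gene length and library size) in hb34 and 299.3 ± 29.2 TPM in WT (SD, n = 3 each).

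FER1 (gene-AT5G01600, chromosome 5, 227953 to 230051, minus strand), the main leaf ferritin gene, had 44.4, 62.1 and 47.9 CPM in hb34 replicates 1 to 3, against 142.1, 197.5 and 151.1 CPM in WT replicates 1 to 3. Every hb34 library lay below every WT library, and replicate 2 was the highest in both groups. In hb34 the mean level was 31.5% of that in WT. Given as hb34 minus WT here and below, its log2 fold change was -1.67 (SE 0.182, adjusted p = 0.0102, edgeR quasi-likelihood test with Benjamini-Hochberg adjustment over 17905 genes).

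FER4 (gene-AT2G40300, chromosome 2, 16831109 to 16833294, minus strand), whose product is known from mitochondria as well as plastids, had 24.5, 26.4 and 24.4 CPM in hb34, against 52.4, 55.4 and 53.5 CPM in WT. The libraries of a group lay close together and the groups were far apart, with the hb34 mean at 46.7% of that in WT. Its log2 fold change was -1.10 (SE 0.109, edgeR adjusted p = 0.00833). Its exons share 118 bases with those of AT2G40290 on the same strand, a gene whose log2 fold change was -0.07.

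FER3 (gene-AT3G56090, chromosome 3, 20813904 to 20816035, minus strand), a second plastid ferritin gene of vegetative tissue, had 47.1, 53.0 and 41.0 CPM in hb34, against 53.2, 63.8 and 49.4 CPM in WT. Here the groups overlapped, since hb34 replicate 2 lay above WT replicate 3. The log2 fold change was -0.24 (SE 0.149, edgeR adjusted p = 0.317), with a 95% interval from -0.58 to 0.11, which does not overlap the intervals of FER1 (-2.09 to -1.24) and FER4 (-1.35 to -0.85). FER2 (AT3G11050), the ferritin gene known from seeds, had 0.103 to 0.633 CPM in hb34 and 0.178 to 0.613 CPM in WT and was too low to be tested.

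In every hb34 library FER1 made up less, and FER3 more, of the ferritin transcripts than in any WT library. FER1 gave 38.8 ± 2.8% of the summed TPM of the 3 genes in hb34 and 56.9 ± 2.6% in WT, FER3 gave 39.6 ± 2.2% in hb34 and 21.6 ± 1.1% in WT, and FER4 gave 21.7 ± 1.6% in hb34 and 21.5 ± 2.2% in WT (SD, n = 3 each). The ratio of FER1 to FER3 within a library, which does not depend on scaling, was 0.849, 1.05 and 1.05 in hb34, against 2.40, 2.79 and 2.75 in WT. That of FER4 to FER3 was 0.530, 0.508 and 0.606 in hb34, against 1.00, 0.886 and 1.10 in WT. Both ratios were separated between the groups, with an exact two-sided permutation p = 0.1, the smallest that 3 against 3 libraries allow (Benjamini-Hochberg adjusted 0.1 over the 4 ratios tested). The ratio of FER1 to FER4 was 1.80 ± 0.24 in hb34 and 2.68 ± 0.41 in WT (SD, n = 3 each; exact permutation p = 0.1, adjusted 0.1).

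**Figure D1:**
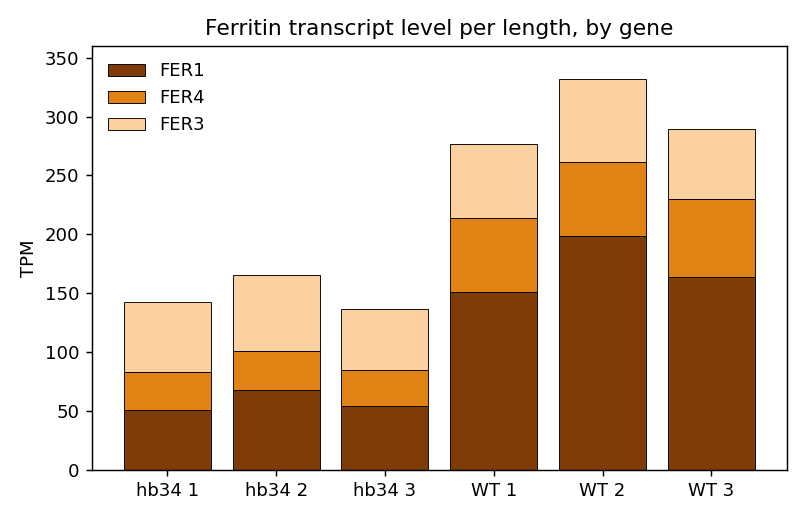
Transcript level per length of FER1, FER4 and FER3 in TPM, stacked, in each of the 3 hb34 and 3 WT libraries. The summed bar reaches 136.1 to 165.5 TPM in hb34 and 276.5 to 332.2 TPM in WT, and the FER3 block is the one of similar height in both groups.

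Of the 10 members, all of which had enough counts to be tested, 2 fell and 1 rose. Over all 17905 genes tested, 2.5% were called lower, 3.77% higher and 6.27% in either direction with the same test. DESeq2 called 2 members lower (FER1 and FER4) and 3 higher (BTS, BHLH101 and OPT3), against 5.56% of genes lower and 9.08% higher. In limma-voom the member calls were those of edgeR, against 2.33% of genes lower and 3.36% higher. With upper quartile scaling in place of TMM, the split over all genes was 536 higher and 615 lower, against 675 higher and 447 lower as reported, and the members' calls did not change. FER1, FER4 and BTS were each called in 14 of 17 alternative analyses. Each lost its call without WT replicate 1 (adjusted p = 0.0745, 0.0745 and 0.124) and without WT replicate 2 (0.0606, 0.0616 and 0.123), with log2 fold changes of -1.75, -1.11 and 1.64 and of -1.50, -1.07 and 1.69. The unadjusted p in those 2 fits ran from 9.18e-05 to 0.00326. Over all genes tested, 1 was called higher and 2 lower without WT replicate 1, and 1 higher and 3 lower without WT replicate 2. The 5 leaf markers were also all on the negative side, with a median log2 fold change of -0.36 and 1 called lower (LHCB3, -0.45, edgeR adjusted p = 0.0378). The part of that shift in the ferritin result was not tested, and in whole tissue fewer cells of a type and less RNA per cell cannot be told apart.

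BTS (gene-AT3G18290, chromosome 3, 6273966 to 6280562, plus strand) was the regulator gene that rose. It had 147.6, 243.5 and 111.1 CPM in hb34, against 44.2, 47.6 and 60.0 CPM in WT. All hb34 libraries lay above all WT libraries, with hb34 replicate 2 the highest by a wide margin, and the ratio of the means was 3.31. Its log2 fold change was 1.73 (SE 0.285, edgeR adjusted p = 0.0213). Without hb34 replicate 2, the library that stood apart, it was 1.35 (SE 0.169, adjusted p = 0.0041), and FER1 and FER4 had -1.82 and -1.14 (adjusted p = 0.00191 and 0.00305). In that fit 4.7% of genes were called higher and 2.77% lower.

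PYE (gene-AT3G47640, chromosome 3, 17567126 to 17569394, plus strand) encodes POPEYE, a bHLH repressor of iron distribution and ferritin genes. It had 47.6, 68.0 and 45.9 CPM in hb34, against 41.1, 33.5 and 38.5 CPM in WT. The groups did not overlap, but the gap was small and the spread in hb34 came mostly from replicate 2. A log2 fold change of 0.51 (SE 0.179) did not pass (edgeR adjusted p = 0.112), with a 95% interval from 0.10 to 0.93. Without hb34 replicate 2 it was 0.31 (edgeR adjusted p = 0.172).

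OPT3 (gene-AT4G16370, chromosome 4, 9247302 to 9250343, minus strand) encodes a phloem transporter through which the shoot's iron status reaches the root. It had 329.8, 425.0 and 239.7 CPM in hb34, against 169.6, 223.7 and 234.8 CPM in WT. The lowest hb34 library was only just above the highest WT library. Between the groups the log2 fold change was 0.66 (SE 0.220, edgeR adjusted p = 0.101) and 0.45 without hb34 replicate 2. DESeq2 called it higher (adjusted p = 0.0444).

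BHLH38, BHLH39, BHLH100 and BHLH101 make up subgroup Ib of the bHLH family, whose products pair with FIT to switch on iron uptake, and BHLH100 is described with them although it is no member. BHLH38 (gene-AT3G56970, chromosome 3, 21084035 to 21085245, minus strand) had 59.5, 15.7 and 23.4 CPM in hb34, against 17.1, 23.1 and 9.91 CPM in WT. Its tandem neighbour BHLH39 (gene-AT3G56980, 21086390 to 21087710), 1144 bases away, had 35.1, 11.3 and 14.4 CPM in hb34, against 12.4, 19.98 and 9.56 CPM in WT. In both genes hb34 replicate 1 was far above the other 5 libraries, whose values overlapped.

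The log2 fold changes were 0.98 (SE 0.507, edgeR adjusted p = 0.237) for BHLH38 and 0.54 (SE 0.454, edgeR adjusted p = 0.449) for BHLH39. Without hb34 replicate 1 they were 0.23 and -0.11, so the direction for BHLH39 rested on that library. The ratio of BHLH38 to BHLH39 TPM was 1.76 ± 0.18 in hb34 and 1.34 ± 0.20 in WT (SD, n = 3 each; exact permutation p = 0.1, adjusted 0.1). The groups barely separated, with the lowest hb34 ratio at 1.564 and the highest WT ratio at 1.557. This p is the smallest that 3 against 3 libraries allow. BHLH38 exons share 386 bases with those of PIP5K4 on the opposite strand, which had 63 to 111 counts in hb34 and 46 to 63 in WT. Whether the counting used strand was not given in the sources used here, and the part of PIP5K4 reads in the BHLH38 counts was not tested.

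BHLH101 (gene-AT5G04150, chromosome 5, 1138410 to 1139633, minus strand) was the lowest of the members, with 62, 69 and 29 counts in hb34 and 14, 18 and 6 in WT. These are 3.33, 3.64 and 1.49 CPM in hb34, against 0.742, 1.07 and 0.307 CPM in WT, without overlap. At 2.02 (SE 0.503) the log2 fold change was just short of the threshold (edgeR adjusted p = 0.0559, range 0.00665 to 0.193 over the alternatives). DESeq2 (adjusted p = 0.00665), scaling by library size only (0.048) and the fit without hb34 replicate 3 (0.0477) called it higher. Its exons share 79 bases with those of GLU1, a ferredoxin-dependent glutamate synthase gene on the opposite strand, which had 26971, 33270 and 22701 counts in hb34 and 13523, 14930 and 21459 in WT (log2 fold change 0.70, edgeR adjusted p = 0.0733). The part of GLU1 reads in the BHLH101 counts was not tested.

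BHLH100 (AT2G41240) had 35.7, 15.3 and 14.3 CPM in hb34, against 8.64, 13.5 and 5.47 CPM in WT. All hb34 libraries were above all WT libraries, with replicate 1 again the highest. Its log2 fold change was 1.25 (SE 0.441, edgeR adjusted p = 0.114).

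IMA1 (gene-AT1G47400, chromosome 1, 17385707 to 17386485, plus strand), named from the choice of members since RefSeq has it as an uncharacterized protein, encodes a short peptide that promotes iron uptake. It had 24.9, 14.6 and 14.03 CPM in hb34, against 19.3, 18.9 and 14.8 CPM in WT. The highest and the 2 lowest values were all in hb34. Between the groups the log2 fold change was 0.01 (SE 0.245, edgeR adjusted p = 0.98), with a 95% interval from -0.56 to 0.58. It was -0.30 without hb34 replicate 1 and -0.09 without WT replicate 3. Of its distinct 50-base exon stretches 1.37% occurred elsewhere in the genome, and of those of the other 9 members 0%.

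**Figure D2:**
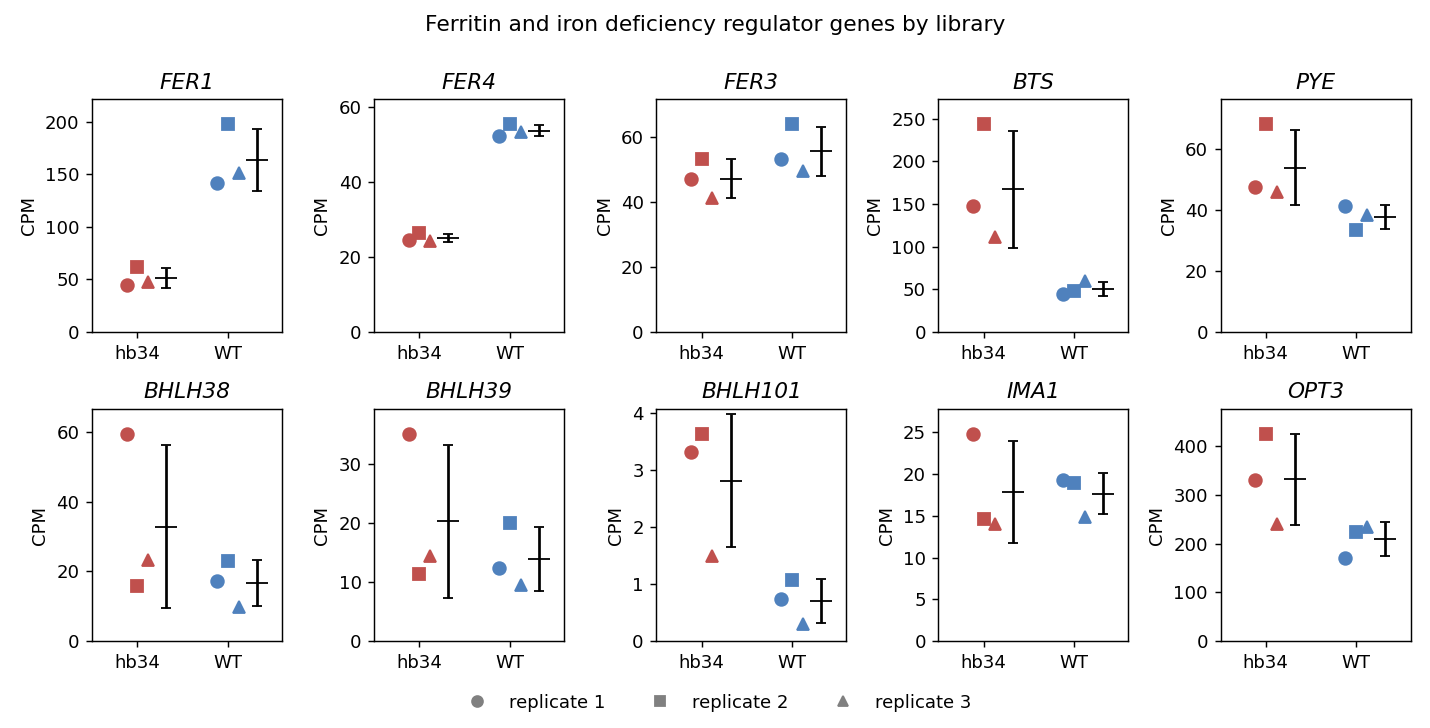
Level of each member in CPM (vertical axes from 0, scaled per gene) in hb34 on the left and WT on the right of each panel. Points are libraries, with a shape for each replicate number, and the bar to their right is the mean ± SD (n = 3). FER1 and FER4 lie lower and BTS higher in hb34 without overlap, while BHLH38 and BHLH39 have a single high library, hb34 replicate 1.

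In level per length, the members kept different orders in the 2 genotypes. In hb34 the order was OPT3 (195.4 ± 51.8 TPM), PYE (61.8 ± 12.8), BTS (59.1 ± 23.0), FER3 (58.6 ± 6.8), FER1 (57.6 ± 9.2), BHLH38 (48.9 ± 35.7), IMA1 (36.6 ± 13.3), FER4 (31.9 ± 0.88), BHLH39 (26.8 ± 17.7) and BHLH101 (4.15 ± 1.69 TPM; SD, n = 3 each). In WT it was FER1 (170.9 ± 24.5 TPM), OPT3 (115.6 ± 19.8), FER3 (64.5 ± 6.0), FER4 (64.0 ± 1.6), PYE (40.7 ± 5.5), IMA1 (33.7 ± 4.1), BHLH38 (22.8 ± 8.2), BHLH39 (17.0 ± 5.8), BTS (16.8 ± 3.2) and BHLH101 (0.958 ± 0.489 TPM; SD, n = 3 each). In hb34 the levels from PYE to BHLH39 lay within the summed SD of their neighbours in the order. In WT that held for FER3 and FER4, and for the neighbours from PYE to BTS.

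All 7 regulator members had a positive log2 fold change (median 0.66) and all 3 ferritin members a negative one (median -1.10), against a median of 0.01 over all genes tested, where 9110 were positive and 8795 negative. IMA1, at 0.01, is counted among the positive ones only by its sign, which was negative without hb34 replicate 1 (-0.30) or WT replicate 3 (-0.09), and also with upper quartile scaling (-0.07), which moved the median of all genes by -0.091. In 4 of the 10 members (BTS, PYE, BHLH101 and OPT3) all hb34 libraries lay above all WT libraries, against 17.8% of all genes tested, and in 2 (FER1 and FER4) all lay below, against 17.5%. BTS, PYE, BHLH101 and OPT3 were highest in hb34 replicate 2, and BHLH38, BHLH39 and IMA1 in hb34 replicate 1.

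Of 12 other genes known to be higher in iron-deficient shoots, 1 rose and 0 fell, against 3.77% of all genes tested called higher and 2.5% lower. Of the 12, 8 had a positive and 4 a negative log2 fold change (median 0.67, range -0.23 to 1.25). Without adjustment, 7 were higher and 0 lower at p under 0.05, against 16.5% of all genes tested higher and 13.3% lower. The gene that rose was AT5G05250, of unknown function, with 47.2, 54.7 and 45.1 CPM in hb34 and 32.8, 32.1 and 24.3 CPM in WT (log2 fold change 0.72, SE 0.156, edgeR adjusted p = 0.0414). It lost its call with upper quartile scaling (adjusted p = 0.0519) and in every fit that left out 1 library other than hb34 replicate 2 (0.0626 to 0.14).

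The next smallest p-values of that list, named after their values were seen, were those of ORG1 and the ferric reductase gene FRO3. ORG1 had 141.9, 94.8 and 88.1 CPM in hb34 and 62.1, 66.5 and 59.5 CPM in WT (0.79, edgeR adjusted p = 0.0518). FRO3 had 68.4, 49.0 and 41.1 CPM in hb34 and 31.5, 35.5 and 29.6 CPM in WT (0.71, edgeR adjusted p = 0.0699). Replicate 1 of hb34 was the highest library for 7 of the 12 genes, and hb34 replicate 2 for 2. The 4 genes on the negative side were AT1G47395, entered in this list as IMA2, AT3G07720, NAS4, a nicotianamine synthase gene, and CGLD27. They had -0.23, -0.20, -0.18 and -0.05, each with a 95% interval that includes 0. AT2G30766, entered as IMA3, was on the positive side at 0.39 (edgeR adjusted p = 0.167).

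**Figure D3:**
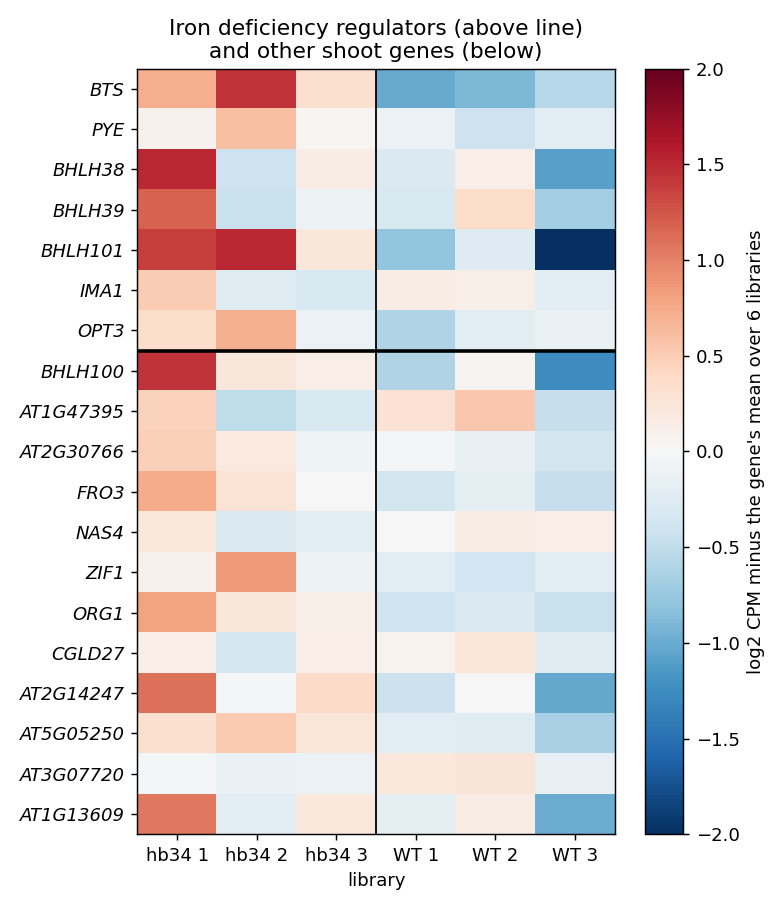
Log2 CPM of each gene minus its own mean over the 6 libraries, for the 7 regulator members above the line and 12 other shoot iron deficiency genes below it, with hb34 libraries on the left and WT on the right. Red is above and blue below the gene's mean. BHLH38, BHLH39 and BHLH100 are reddest in hb34 replicate 1, BTS and BHLH101 in hb34 replicate 2.

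Upstream of these genes act the bHLH factors that BTS targets and their partner BHLH121. BHLH121 (AT3G19860) rose, with 25.7, 29.6 and 26.9 CPM in hb34 and 18.6, 16.7 and 18.4 CPM in WT (log2 fold change 0.61, SE 0.125, edgeR adjusted p = 0.0363). It was the only call among 5 tested factors of the 6 listed, against 3.77% of all genes tested called higher. The median log2 fold change of the 5 was -0.43. The call was lost with upper quartile scaling (adjusted p = 0.0543) and in every fit that left out 1 library other than hb34 replicate 2 (0.0538 to 0.156). BHLH115 and BHLH104 had -0.43 each (edgeR adjusted p = 0.0591 and 0.107), with all hb34 libraries below all WT libraries. BHLH34 had -0.57 (0.281) and ILR3 -0.15 (0.428).

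Of 14 genes listed under root iron uptake, 4 had 0 counts in every library and 6 could be tested. The list mixes uptake genes with regulators such as FIT, and uptake itself was not measured. IRT1, the root's main iron importer gene, had 1 count in all 6 libraries together. With edgeR 1 of the 6 rose, against 3.77% of all genes tested. It was AT1G74770, entered in this list as BTSL1 and annotated as a zinc ion binding protein. The gene had 84, 39 and 75 counts in hb34 and 23, 9 and 18 in WT (log2 fold change 1.94, SE 0.412, edgeR adjusted p = 0.0395). Its call was lost with limma-voom (adjusted p = 0.0594) and in every fit that left out 1 library other than hb34 replicate 2 (0.0661 to 0.157). FIT, the partner of the Ib factors, had 17, 17 and 22 counts in hb34 and 28, 33 and 35 in WT (-0.82, SE 0.284, edgeR adjusted p = 0.109).

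Of 7 tested genes for nicotianamine synthesis and iron transport, 0 passed with edgeR, and 2, both nicotianamine synthase genes, were higher at an unadjusted p under 0.05, against 16.5% of all genes. NAS1 had 77.4, 38.4 and 71.1 CPM in hb34 and 26.5, 36.5 and 29.9 CPM in WT (1.01, SE 0.265, edgeR adjusted p = 0.0628), and NAS3 had a log2 fold change of 0.79 (adjusted p = 0.145). DESeq2 called NAS1 higher (adjusted p = 0.00515), as it did 9.08% of the genes it tested. Without hb34 replicate 2 both passed in edgeR, at 1.26 and 1.05 (adjusted p = 0.00361 and 0.0306), where 4.7% of genes were called higher. In every other edgeR fit that left out 1 library neither passed. There the adjusted p was 0.1088 to 0.2215 for NAS1 and 0.2053 to 0.3696 for NAS3. Of 4 tested vacuolar iron genes, 0 passed with edgeR and 1 was higher at an unadjusted p under 0.05, against the same 16.5%. It was NRAMP4, an exporter of vacuolar iron, with 86.9, 91.2 and 72.9 CPM in hb34 and 61.6, 63.8 and 56.8 CPM in WT (0.46, SE 0.124, edgeR adjusted p = 0.0654; DESeq2 0.0262). VTL2, a vacuolar importer gene, had 0.24 (edgeR adjusted p = 0.531).

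Of 12 plastid iron and iron-sulfur genes, 0 passed with edgeR, while without adjustment 2 were higher and 5 lower at p under 0.05 (median -0.25), against 16.5% of all genes higher and 13.3% lower. FRO7, the chloroplast ferric reductase gene, had 224.6, 223.9 and 323.8 CPM in hb34 and 165.7, 163.0 and 171.8 CPM in WT (0.63, SE 0.159, edgeR adjusted p = 0.0584). SUFD, a scaffold gene of plastid iron-sulfur clusters, had 99.8, 90.1 and 85.8 CPM in hb34 and 121.1, 114.1 and 120.3 CPM in WT (-0.37, SE 0.106, edgeR adjusted p = 0.076). DESeq2 called FRO7 higher (0.0124) and SUFD lower (0.0394), against 9.08% of the genes it tested higher and 5.56% lower.

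Among transcription factors linked to ferritin genes, PRR7, a repressor of the circadian clock, rose. It had 59.9, 57.8 and 66.4 CPM in hb34 and 30.1, 30.5 and 37.6 CPM in WT (log2 fold change 0.91, SE 0.134, edgeR adjusted p = 0.0169). Its call was lost without WT replicate 1 or 2 (adjusted p = 0.0988 and 0.0987), fits that each called 1 gene higher. PHR1 (0.19, adjusted p = 0.246) and PHL1 (0.07, 0.849) did not pass. Across the 49 tested iron genes that are not members, 4 rose and 0 fell with edgeR, against 3.77% of all genes called higher and 2.5% lower. Without adjustment 15 were higher and 8 lower at p under 0.05, against 16.5% of all genes higher and 13.3% lower.

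**Figure D4:**
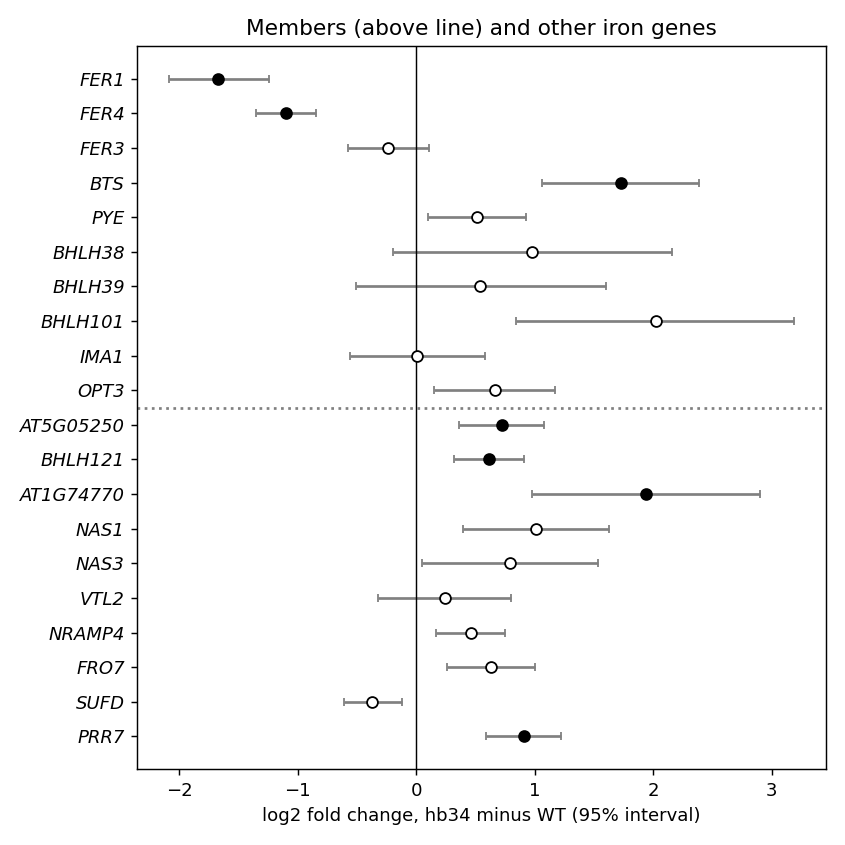
Log2 fold change, hb34 minus WT, with its 95% interval, for the 10 members above the dotted line and the other iron genes named by rule below it. Filled points passed an edgeR adjusted p under 0.05, which FER1 and FER4 did on the lower side and BTS, AT5G05250, BHLH121, AT1G74770 and PRR7 on the higher side.

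Among 17895 genes compared, those closest over the 6 libraries to the mean ferritin profile were AT5G03700, RTM2 and MYB32. That profile averages FER1, FER3 and FER4, whose log2 fold changes differed. The 3 genes had root mean square differences of 0.067, 0.0984 and 0.112 in centred log2 CPM. They had only 16 to 38, 47 to 109 and 19 to 49 counts per library. They had log2 fold changes of -1.04, -1.04 and -1.05, whose direction and size follow from the choice by profile, so no test is given. Closest to IMA1 were TRM28, AT1G19310 and AT1G80720, at 0.0832, 0.115 and 0.117, with log2 fold changes of -0.06, 0.20 and 0.02, chosen in the same way.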

How the data were processed

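The deposited values are raw read counts, in a separate table for each library. Exon coordinates and summed exon length stand beside each gene's count, per the file headers. The submitters' processing notes name HISAT2 2.1.0, DESeq2 1.30.1 and TAIR10 without their roles. Which counter was used, with which strand setting and which rule for multi-mapped reads, was not given in the sources used here. Chromosome accessions matched RefSeq TAIR10.1, and 38187 of 38189 genes lay inside the same gene there.

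The edgeR 4.0.16 quasi-likelihood test (R 4.3.3) was run on genotype alone after TMM scaling, for the 17905 genes that filterByExpr kept at a minimum count of 10 and a minimum total of 15. Benjamini-Hochberg adjustment ran over those genes, with a threshold of 0.05. They held 99.891% or more of the counts in every library. CPM use TMM-scaled sizes, log2 CPM a prior count of 2, and TPM the files' exon lengths. A count of 3 is 0.153 to 0.178 CPM, which covers counting error only.

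The members, the 7 further iron lists and the tissue markers were chosen with earlier results of these data known. Named genes are the members, HB34, each list's calls or, with none, its 2 smallest p, and the 3 nearest profiles to the ferritin mean and to IMA1. The 17 alternatives covered scaling, filtering, DESeq2 1.42.0, limma-voom (limma 3.58.1), dispersions, a replicate block, the first 2 Mb of chromosome 2 left out, and each library left out. The window of sequence before 1 member is not reported here, and motifs were counted in the other 9.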

Additional observations from a re-analysis of the deposited data

How the results depend on the processing

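Counts of calls depended on single libraries, the tool, the replicate block and, for genes called higher, the first 2 Mb of chromosome 2. The shares of all genes given above include that segment. Genes called higher numbered 675 as reported, 1651 with DESeq2, 2 with the replicate block and 383 without the first 2 Mb of chromosome 2, and genes called lower numbered 447 as reported, 1010 with DESeq2 and 3 with the replicate block. Leaving out each library in turn gave 1 to 853 higher and 2 to 503 lower. The fewest calls were without WT replicate 1 (1 higher, 2 lower) and without WT replicate 2 (1 higher, 3 lower). Of the members, 1 was called higher as reported, 3 with DESeq2, 2 with library size only and 0 with the replicate block, and 2 were called lower as reported and 0 with the replicate block. Leaving out each library gave 0 to 2 members higher and 0 to 2 lower. With the replicate block FER1, FER4 and BTS had adjusted p of 0.0543, 0.0836 and 0.102, and AT5G05250, BHLH121, AT1G74770 and PRR7, which also lost their calls, 0.115, 0.148, 0.0908 and 0.0922. Same-numbered libraries deviated from their group means with correlations of -0.097, -0.115 and -0.263, and libraries of different numbers with -0.038 to 0.174. With 3 libraries per group, these correlations cannot exclude that same-numbered libraries shared a step. Whether the numbers pair the samples was not settled. Log2 fold changes of 5 genes changed sign. Upper quartile scaling moved the median of all genes by -0.091, which is more than the reported values of IMA1 and AT1G80720. IMA1 had -0.07 with upper quartile scaling, -0.03 with limma-voom and -0.02 with the replicate block, and -0.30 to 0.16 over libraries left out. AT1G80720 had -0.07 with upper quartile scaling, -0.00 with limma-voom and -0.18 to 0.18 over libraries left out. Over libraries left out BHLH39 had -0.11 to 0.89, TRM28 -0.46 to 0.15 and AT1G19310 -0.10 to 0.36. The causes were not tested. BHLH101, which had the fewest counts of the members, kept its sign, at 1.65 to 2.43 over the alternatives.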
